A study of Caenorhabditis elegans with 12 samples.

Results

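Genes that build the eggshell and prepare the egg for its first divisions were followed in adult Caenorhabditis elegans: egg-1, egg-2, egg-3, egg-4, egg-5, cbd-1, chs-1, perm-2, perm-4 and mbk-2. They were taken by name from the gene column of both deposited gene tables, and all 10 of 10 were found among 39665 named genes. RNA came from whole wild-type N2 hermaphrodites (XX) and from whole XX animals homozygous for fog-2(q71), strain JK574, which the labels call females; both were adults grown at 20 °C on OP50 bacteria. FOG-2 is an F-box protein needed for the hermaphrodite germline to make sperm, so XX animals of this genotype make oocytes but no sperm of their own. Each RNA sample was copied into cDNA once from oligo-dT, a primer for poly(A) tails, and once from random hexamers, which prime anywhere, giving 12 libraries in 4 groups of 3 biological replicates. The labels do not say how old the adults were, or whether the females had been mated or the hermaphrodites carried embryos.

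In this worm the eggshell is made by the egg itself. The oocyte carries a vitelline layer before ovulation, and entry of the sperm starts the secretion of chitin and of further layers beneath it, while the oocyte completes meiosis and its maternal proteins are modified or destroyed. Much of this machinery waits at the oocyte cortex, where pseudophosphatases of the EGG-3, EGG-4 and EGG-5 type hold the kinase MBK-2 and the chitin synthase CHS-1 in place until fertilisation. The mRNAs for these proteins are made in the maternal germline, and the series allows their levels to be compared between the genotypes. Genotype and the presence of sperm cannot be told apart here, and the fog-2 animals are not known to have lacked sperm from mating. The series set both primings side by side to look for effects of FOG-2 on poly(A) tails.

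All values below are FPKM (fragments scaled by the length of the gene model and by the size of the library), of which the authors deposited 1 pooled value per genotype and priming. The spread between libraries and the depth of each library can therefore not be given. Folds were computed as log2 of fog-2 over N2, and the standard error (SE) and 95% interval of a fold are those implied by the authors' p-value. A gene is called where the authors' q-value is at or under 0.05. The targeted gene was lower in the mutant with both primings: with oligo-dT the fog-2 mRNA stood at 64.2 FPKM in N2 and 14.4 in the mutant (q = 0.00636 in the authors' deposited table), and at 34.9 and 7.08 FPKM with hexamers (q = 0.0103 in the authors' deposited table).

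None of the 10 genes was called between hermaphrodites and fog-2 females with either priming. With oligo-dT 0 of 8 tested members passed, against 1.43% of all 16396 tested genes in the authors' deposited table, and with hexamers 0 of 10, against 0.822% of 9855. At an unadjusted p under 0.05 the members again numbered 0 with each priming, where 8.45% and 8.97% of all tested genes passed in the authors' deposited tables. The smallest member q was 0.876 with oligo-dT and 0.835 with hexamers in the authors' deposited tables. In level, the fog-2 value of a member differed from its N2 value by between -9.03% (chs-1, oligo-dT) and 15.4% (egg-4, hexamers). In whole animals, fewer cells of a type and less RNA per cell cannot be told apart.

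**Figure D1:**
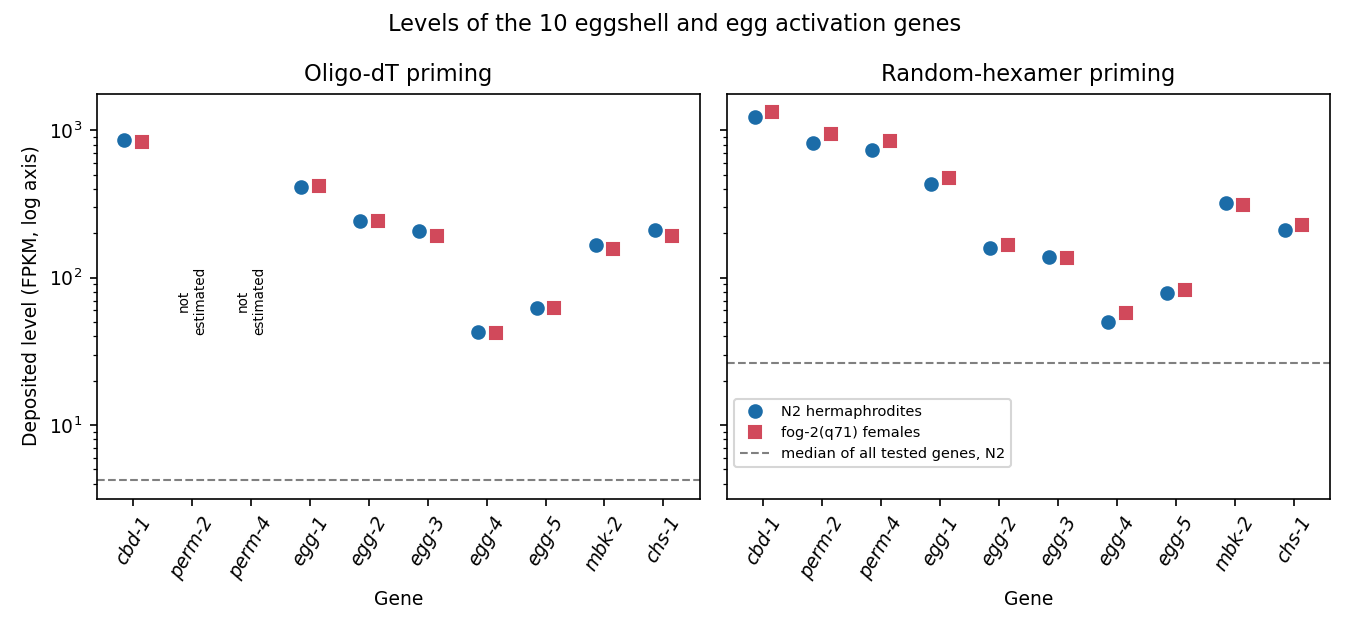
Deposited FPKM (log axis) of each gene in N2 hermaphrodites (circles) and fog-2(q71) females (squares), 1 pooled value per genotype, with oligo-dT (left) and hexamers (right); the dashed line is the N2 median of all tested genes. The pair of symbols of each gene lies close together with both primings, from 43.1 and 42.3 FPKM for egg-4 to 863 and 832 for cbd-1 with oligo-dT; perm-2 and perm-4 have no estimate with oligo-dT.

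Among the members, the vitelline layer gene cbd-1 was the most abundant with both primings. Its partners perm-2 and perm-4 came next with hexamers, the only priming in which they had a value. CBD-1 is a protein with chitin-binding domains that ties the vitelline layer to the oocyte membrane, and PERM-2 and PERM-4 are layer proteins that assemble with it. With oligo-dT, cbd-1 (chromosome IV, 11372971 to 11377347, in the coordinates of the authors' tables, whose build was not given in the sources used here) was at 863 FPKM in N2 and 832 in fog-2, a log2 fold of -0.05 (SE 0.15; q = 0.998 in the authors' deposited table). With hexamers it was at 1231 and 1334 FPKM, a log2 fold of 0.12 (SE 0.21; q = 0.999 in the authors' deposited table). Its level was thus slightly lower in fog-2 with one priming and slightly higher with the other, each time by less than 1 SE.

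With hexamers, perm-2 was at 825 FPKM in N2 and 945 in fog-2, and perm-4 at 741 and 851 FPKM. Their log2 folds were nearly equal, 0.20 for each, but with SE of 0.86 and 0.58 the 95% intervals ran from -1.50 to 1.89 and from -0.94 to 1.35. The interval of perm-2 reaches past a log2 fold of 1 in both directions and that of perm-4 in the upward direction, so changes of that size are not excluded. The authors' tables place both genes in 1 locus of 188 gene models (chromosome IV, 858931 to 1921342). With oligo-dT the authors' status for that locus says that it held too many fragments to be estimated, so perm-2 and perm-4 have no value there. In the WBcel235 annotation, perm-2 lies on the forward strand and perm-4 on the reverse strand of the same chromosome, with 5 and 4 exons.

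The receptors on the oocyte surface were also well expressed. EGG-1 and EGG-2 are related membrane proteins with LDL-receptor repeats on the oocyte surface, where sperm need them to enter. With oligo-dT, egg-1 (chromosome III, 5728136 to 5729977) was at 411 FPKM in N2 and 422 in fog-2, a log2 fold of 0.04 (SE 0.14), and with hexamers at 436 and 476 FPKM, a log2 fold of 0.13 (SE 0.16). For egg-2 (chromosome III, 7058581 to 7060520) the level was 242 FPKM in both genotypes with oligo-dT, a log2 fold of -0.00083 (SE 0.13), and 159 and 167 FPKM with hexamers, a log2 fold of 0.08 (SE 0.15). Each gene has 5 exons and a single transcript in WBcel235. The more abundant receptor was egg-1 in all 4 groups: its level was 1.70 times that of egg-2 in N2 and 1.74 times in fog-2 with oligo-dT, and 2.75 and 2.85 times with hexamers. Both genotypes thus held the pair in nearly the same proportion within a table. Relative to the median fold of all tested genes, the sign of egg-2 turned with both primings, to 0.03 with oligo-dT and to -0.02 with hexamers.

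The pseudophosphatases of the cortex were lower in level. EGG-3 is a phosphatase-like protein without catalytic activity that anchors MBK-2, CHS-1 and its own partners at the oocyte cortex. Its gene egg-3 (chromosome II, 10882472 to 10884380) was at 208 FPKM in hermaphrodites and 192 in fog-2 with oligo-dT, a log2 fold of -0.11 (95% interval -0.39 to 0.16). With hexamers egg-3 was at 139 and 135 FPKM, a log2 fold of -0.04 (95% interval -0.34 to 0.26). It was lower in fog-2 with both primings, by less than 1 SE each time.

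EGG-4 and EGG-5 are close relatives of each other that bind the activation loop of MBK-2 and keep it inactive until meiosis. Their loci in the authors' tables are of equal length, 2505 bases (chromosome I, 3932214 to 3934718 for egg-4 and 4169085 to 4171589 for egg-5), and their coding regions in WBcel235 are both 2259 bases long. Because the copies are alike, reads may have been divided between them, and the level of either copy is uncertain. With oligo-dT, egg-4 was at 43.1 FPKM in N2 and 42.3 in fog-2 (log2 fold -0.03, SE 0.14), and egg-5 at 62.4 and 62.6 FPKM (log2 fold 0.0030, SE 0.14). With hexamers, egg-4 was at 49.8 and 57.5 FPKM, a log2 fold of 0.21 (SE 0.17; p = 0.213 and q = 0.835 in the authors' deposited table), and egg-5 at 79.1 and 82.4 FPKM, a log2 fold of 0.06 (SE 0.15). The fold of egg-4 with hexamers was the largest of any member, just ahead of perm-4 and perm-2 at 0.20 each. It exceeded its SE, without reaching p under 0.05. Centred on the median fold of its table, it was 0.10 and below its SE. Relative to the median fold of all tested genes, egg-4 turned to 0.0020 with oligo-dT and egg-5 to -0.04 with hexamers. The level of egg-5 was 1.45 and 1.48 times that of egg-4 in N2 and fog-2 with oligo-dT, and 1.59 and 1.43 times with hexamers.

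The kinase and the chitin synthase closed the list. MBK-2 is a DYRK-family kinase that, once released at meiosis, phosphorylates maternal proteins such as the katanin MEI-1 and the oocyte factor OMA-1 and marks them for destruction. With oligo-dT, mbk-2 was at 167 FPKM in N2 and 156 in fog-2, a log2 fold of -0.09 (95% interval -0.85 to 0.66), and with hexamers at 320.4 and 313 FPKM, a log2 fold of -0.04 (95% interval -0.60 to 0.53). Its levels were close in both genotypes, but the intervals are wide. The authors' tables place mbk-2 in a locus shared by 92 gene models (chromosome IV, 12849497 to 13146871), and WBcel235 gives it 14 transcripts of 4 to 12 exons, so its FPKM sums isoforms that the tables do not separate.

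CHS-1 makes the chitin of the eggshell. Its gene chs-1 (chromosome I, 7554996 to 7559452) was at 209.5 FPKM in hermaphrodites and 191 in fog-2 with oligo-dT, a log2 fold of -0.14 (SE 0.14; p = 0.337 and q = 0.876 in the authors' deposited table). With hexamers chs-1 was at 211 and 227 FPKM, a log2 fold of 0.10 (SE 0.16), or 0.0014 above the median fold of its table. It thus had the lowest fold of the 8 members tested with oligo-dT and a fold at the table's median with hexamers.

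The precision of these folds differed between genes with a locus of their own and genes in shared loci. For the 7 members with their own locus (egg-1 to egg-5, cbd-1 and chs-1), the SE lay between 0.13 and 0.15 with oligo-dT and between 0.15 and 0.21 with hexamers. The union of their 95% intervals spanned -0.42 to 0.31 with oligo-dT and -0.34 to 0.53 with hexamers on the log2 scale. With errors taken from the authors' test score instead, the same spans were -0.61 to 0.50 and -0.62 to 0.85. For the members in shared loci the SE was 0.39 with oligo-dT (mbk-2) and 0.29 to 0.86 with hexamers. Over all tested genes of at least 40 FPKM the median SE was 0.15 for 3312 genes with their own locus and 0.32 for 707 in shared loci with oligo-dT, and 0.17 and 0.95 with hexamers. The smallest absolute log2 fold that was called at this level was 0.50 with oligo-dT and 0.60 with hexamers. Smaller differences in these genes may have been missed, and larger ones too in members of shared loci, given their larger SE. No detection limit was computed.

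**Figure D2:**
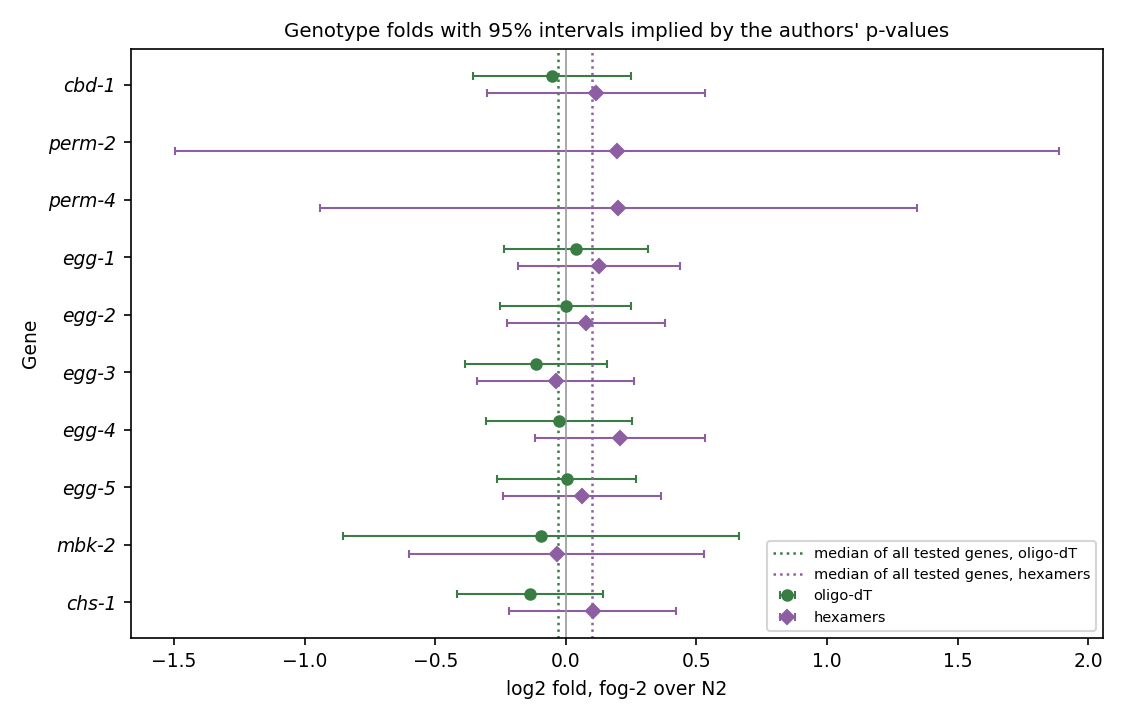
Log2 fold of fog-2 over N2 for each gene with oligo-dT (circles) and hexamers (diamonds); bars are 95% intervals implied by the authors' p-values, and dotted lines the median fold of all tested genes. Every interval spans 0, the intervals of perm-2, perm-4 and mbk-2 are the widest, and most points lie near the dotted line of their own priming.

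Against the other genes of their tables the members had small folds. With oligo-dT the median log2 fold of the 8 tested members was -0.04, with 6 below 0 and 2 above, beside a median of -0.03 for all tested genes. With hexamers the median of the 10 members was 0.11, with 2 below 0 and 8 above, beside 0.10 for all tested genes. Relative to those medians, 4 members lay below and 4 above with oligo-dT, and 4 below and 6 above with hexamers, so the surplus of values above 0 with hexamers was not seen once the table was centred. The median absolute log2 fold of the members was 0.05 and 0.11, against 0.22 and 0.19 for all tested genes. Well expressed genes as a whole had small folds: over genes within the range of the members' mean levels, the median absolute log2 fold was 0.11 for 3672 genes with oligo-dT and 0.14 for 2872 genes with hexamers. Within those ranges the median log2 fold was 0.09 and 0.11. All 8 tested members lay below the first value with oligo-dT, and 5 of 10 below the second with hexamers, a description only, since no test was made of the list.

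**Figure D3:**
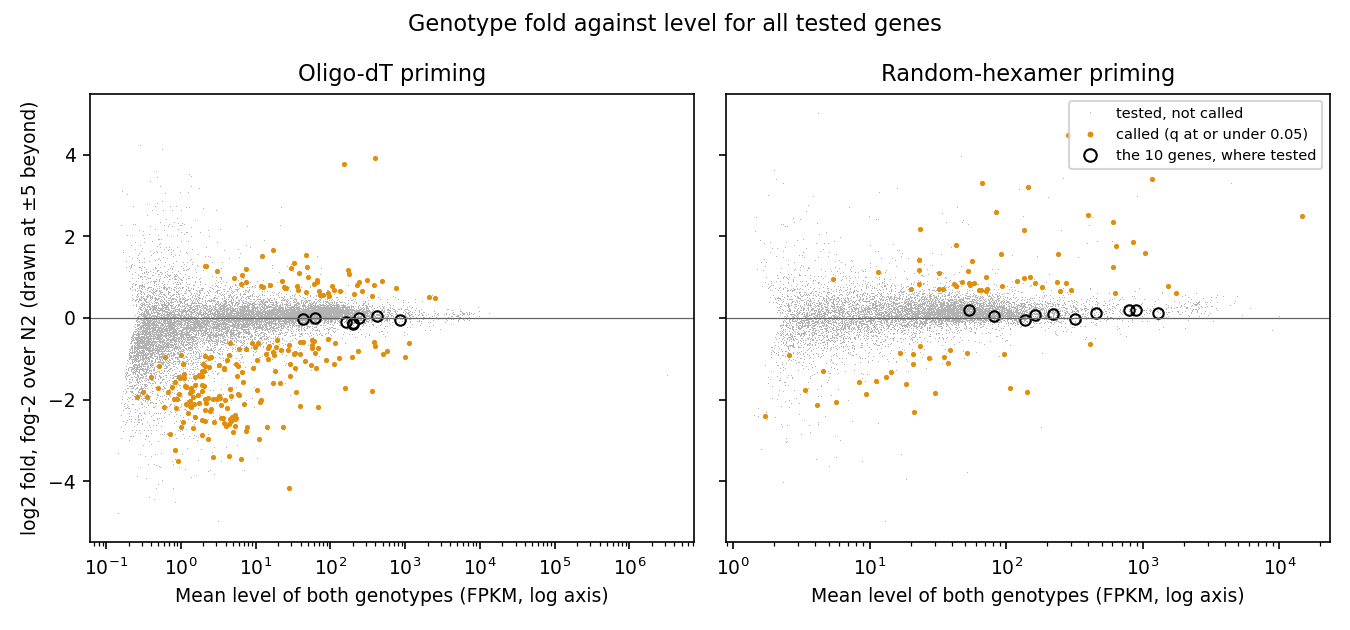
Log2 fold of fog-2 over N2 (vertical, values beyond 5 drawn at 5) against mean FPKM of both genotypes (log axis) for all tested genes with oligo-dT (left) and hexamers (right); filled points are called genes and open circles the 10 genes where tested. The open circles sit near 0 at the well expressed end of both tables, away from the called genes.

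By level, the members belonged to the more abundant mRNAs of the adult. The N2 median over tested members was 209 FPKM with oligo-dT and 266 with hexamers, against 4.23 and 26.2 for all tested genes. Ranked by mean level with oligo-dT among all tested genes, cbd-1 was at percentile 98.7 and egg-4, the lowest, at percentile 76.3. The order with oligo-dT was cbd-1, egg-1, egg-2, egg-3, chs-1, mbk-2, egg-5 and egg-4, and the means of egg-3 and chs-1 were both 200.1 FPKM. With hexamers the order was cbd-1, perm-2, perm-4, egg-1, mbk-2, chs-1, egg-2, egg-3, egg-5 and egg-4. Whether neighbours in these orders differ beyond the spread between libraries cannot be told from pooled values. Related genes with roles outside the egg were lower than the member they resemble. The level of chs-1 was 117 times that of chs-2, the chitin synthase of the pharynx, in N2 and 184 times in fog-2 with oligo-dT, and 98.0 and 185 times with hexamers. These ratios are imprecise, since chs-2 was between 1.03 and 2.15 FPKM in a locus shared by 142 gene models, with an SE of 4.08 on its log2 fold with oligo-dT and no test with hexamers. The level of mbk-2 was 11.8 times that of its relative mbk-1 in N2 with oligo-dT and 13.1 times with hexamers. The more distant kinase gene hpk-1 was closer: mbk-2 was 6.44 times as high in N2 with oligo-dT and 5.16 times with hexamers, where hpk-1 at 62.1 FPKM exceeded egg-4 at 49.8. Of the 4 listed paralogs, 3 were tested with oligo-dT and 2 with hexamers, with 0 called.

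The ratio of the level with oligo-dT to that with hexamers was then compared between genotypes, the question of the series' design. The tables were normalised separately, so only ratios relative to other genes can be read. The median log2 ratio over 8593 genes tested in both tables was 0.59 in N2 and 0.56 in fog-2. In N2, egg-2 and egg-3 had log2 ratios of 0.61 and 0.58, close to that median. The other 6 members lay below the lower quartile of all genes (0.04): chs-1 at -0.01, egg-1 at -0.09, egg-4 at -0.21, egg-5 at -0.34, cbd-1 at -0.51 and mbk-2 at -0.94. In fog-2 the same quantity was 0.53 for egg-2, 0.51 for egg-3, -0.25 for chs-1, -0.17 for egg-1, -0.44 for egg-4, -0.40 for egg-5, -0.68 for cbd-1 and -0.999 for mbk-2. Relative to the median of all genes, the largest shift of a member's ratio between genotypes was 0.20, while the members themselves ranged from -1.53 to 0.02 in N2. Of the receptors, egg-2 was near the median ratio and egg-1 below the lower quartile. Low ratios were not particular to the members. Among other listed genes, mex-5 (-0.72), oma-1 (-0.17) and puf-5 (-0.03) also lay below the lower quartile in N2. Others, such as cpg-2 (0.43), rme-2 (0.52) and gna-2 (1.16), lay above it. For the members with a ratio, transcript lengths in WBcel235 run from 1410 bases (the shortest of mbk-2) to 4288 (chs-1), and their part in these ratios was not tested.

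**Figure D4:**
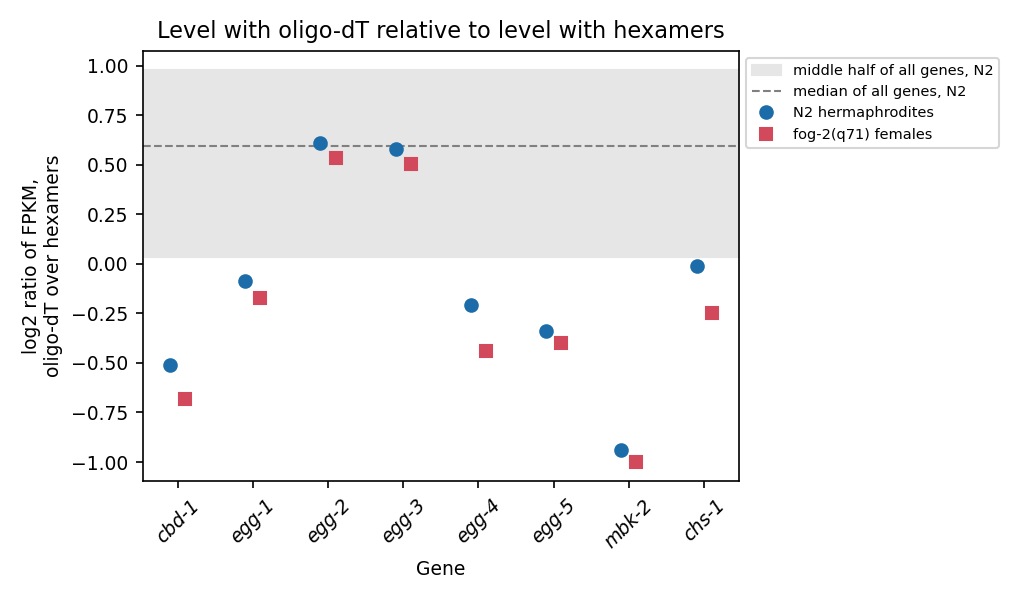
Log2 ratio of FPKM with oligo-dT over FPKM with hexamers for the 8 genes tested in both tables, in N2 (circles) and fog-2 (squares); the band runs from the lower to the upper quartile of all genes in N2 and the dashed line their median (0.59). Only egg-2 and egg-3 lie in the band, and the symbols of both genotypes lie close together for each gene.

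No gene, member or not, passed the test of whether its genotype fold differed between primings. The difference, oligo-dT fold minus hexamer fold relative to the median of all genes (-0.06), was tested with a normal test on the combined SE, with Benjamini-Hochberg adjustment over all 8593 genes. Among the 8 members 0 passed, as did 0% of all genes; at an unadjusted p under 0.05 the members numbered 0 and all genes 1.61%. The most extreme member was chs-1, at a difference of -0.18 on the log2 scale (SE 0.22, 95% interval -0.61 to 0.24), and the adjusted value of every member was 1. The next was egg-4 at -0.18 (95% interval -0.61 to 0.25), then cbd-1 at -0.11 (95% interval -0.63 to 0.40). For egg-1, egg-2, egg-3, egg-5 and mbk-2 the difference lay between -0.03 and -0.0015. All 8 differences were thus below the median of all genes, none by more than 1 SE. Both primings used the same RNA samples, so their errors are not independent, which the test leaves out. The combined SE were larger than the spread of the differences over all genes, so the test was conservative. With no gene called, the lack of calls among the members says nothing particular to them.

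Genes nearest to each member over the 4 FPKM values (log2 scale, both genotypes and both primings) were sought among 4248 candidates with a public name, the members left out. The nearest to egg-1 was cdc-48.1, at a Euclidean distance of 0.12 log2 units, to egg-2 nuo-4 (0.15), to egg-3 hpd-1 (0.11), to egg-4 wrm-1 (0.08) and to egg-5 tcer-1 (0.10). For chs-1 it was puf-7 (0.13), for mbk-2 acs-4 (0.11) and for cbd-1 pab-1, the cytoplasmic poly(A)-binding protein gene (0.40). With 4 pooled values a short distance says that levels and folds are alike and no more.

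Of the other genes of eggshell synthesis, 1 was called. The list of 20 genes held chitin precursor enzymes, chondroitin proteoglycans and their synthesis, and lipid enzymes of the permeability barrier; all 20 were tested with both primings. With oligo-dT 1 was called lower and 0 higher, and with hexamers 0 in either direction. The call was pod-2, the acetyl-CoA carboxylase that starts fatty acid synthesis, which fell from 52.4 to 34.7 FPKM with oligo-dT, a log2 fold of -0.60 (SE 0.15; q = 0.0117 in the authors' deposited table). With hexamers pod-2 was at 116 and 96.5 FPKM and was not called (q = 0.727 in the authors' deposited table); its locus holds 2 gene models, and the enzyme also serves the intestine and other tissues. The most abundant of the list were cpg-2 and cpg-1, eggshell chondroitin proteoglycan cores. With oligo-dT they were at 2389.65 and 2280.0 FPKM for cpg-2 and at 1584 and 1507 for cpg-1, in N2 and fog-2. With hexamers cpg-1 was at 1404 and 1659 FPKM, a log2 fold of 0.24 (q = 0.871 in the authors' deposited table). The median log2 fold of the list was -0.01 with oligo-dT and 0.03 with hexamers, or 0.02 and -0.07 relative to all tested genes.

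Genes of the steps after fertilisation were then read. Of 19 listed targets of MBK-2 and genes of the oocyte-to-embryo transition, 15 were tested with oligo-dT and 18 with hexamers, with 0 called in either direction. The most abundant, pos-1, a zinc-finger RNA-binding protein of the early embryo, was at 1507 and 1483 FPKM with oligo-dT, and the cyclin B gene cyb-3 at 1241 and 1258. The list's median log2 fold was -0.01 and 0.08 (0.02 and -0.03 relative to all tested genes). The anaphase-promoting complex and its activator fzy-1, which drive the meiotic divisions during which EGG-3 leaves the cortex, had 0 calls among 6 tested with oligo-dT and 8 with hexamers. Their median log2 folds were 0.10 and 0.17, above 0 in 6 of 6 and 8 of 8, and 0.13 and 0.07 relative to all tested genes. Over genes within the range of the 10 members' mean levels, the medians were themselves 0.09 and 0.11. Some genes of the complex lay below that range with hexamers. The most abundant were fzy-1 (182 and 194 FPKM) and the subunit gene apc-11 (126 and 144 FPKM) with oligo-dT, and fzy-1 (121 and 141 FPKM) and mat-1 (122 and 145 FPKM, in a locus of 178 gene models) with hexamers. Genes of cortical granule traffic, such as rab-11.1 at 574 and 543 FPKM and rab-5 at 272 and 285 FPKM with oligo-dT, had 0 calls among 8 tested with each priming, with medians of 0.06 and 0.16 (0.09 and 0.06 relative to all tested genes).

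Markers of oocytes, early embryos and sperm were read beside these results. Oocyte markers, which include the yolk receptor gene rme-2, were abundant in both genotypes, apart from lin-41 with oligo-dT. There lin-41 was at 13.7 FPKM in N2 and 11.8 in fog-2, and oma-2 had no estimate. Their summed level was 3450.0 FPKM in hermaphrodites and 3234 in fog-2 with oligo-dT over 6 genes, and 4098 and 4322 with hexamers over 7, with 0 calls and medians of -0.13 and 0.09 (-0.11 and -0.01 relative to all tested genes). The most abundant were the genes of the RNA-binding proteins PUF-5 and SPN-4: with oligo-dT puf-5 was at 1005 FPKM in N2 and 900.3 in the mutant, and spn-4 at 989.7 and 996 FPKM. Genes transcribed in early embryos were low. Over 10 of 13 genes, the others having no estimate, their sum was 36.5 FPKM in hermaphrodites and 43.3 in fog-2 with oligo-dT, with 0 of 10 called. The most abundant was sdz-28, at 15.5 and 19.0 FPKM, followed by pes-10 at 9.88 and 13.1 FPKM (q = 0.601 in the authors' deposited table). With hexamers 2 of 13 were tested and 0 called, and 3 were listed at 0 in fog-2. The sum over the 13 was 22.1 FPKM in N2 and 23.6 in fog-2, of which pes-10 made 4.67 and 7.499 FPKM (q = 0.489 in the authors' deposited table). Leaving out pes-10, the hexamer sum over 12 genes was 17.5 FPKM for N2 and 16.1 for the mutant. Of these 12 genes, 8 were lower in the mutant and 4 higher. The oligo-dT sum, again leaving out pes-10, covered 9 genes and came to 26.6 FPKM for N2 and 30.2 for the mutant. Of these 9 genes, 3 were lower in the mutant and 6 higher. Of the embryo markers, pes-10 and sdz-28, the latter in a locus of 7 gene models, were thus detected in the samples labelled as females too. The others with an estimate were at most 3.74 FPKM in fog-2 with either priming, many of them as low as the sperm markers below. The part of embryos in the levels of maternal mRNAs was not tested.

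Sperm markers were at the edge of detection. Of 14 listed, 9 were tested with oligo-dT, with a median log2 fold of -1.06, 7 below 0, 0 called and 4 at an unadjusted p under 0.05. Their sum over 13 genes was 9.15 FPKM in N2 and 6.54 in fog-2, and ssp-9 was listed at 0 in both. The most abundant tested were trp-3, a sperm cation channel gene listed as spe-41 in a locus of 97 gene models, at 1.996 and 2.66 FPKM, and ssp-16 at 1.48 and 0.669 FPKM. The paternal egg-activation gene spe-11, whose product enters with the sperm and is needed for eggshell formation, was at 0.448 FPKM in N2 and 0.0729 in fog-2 (p = 0.0171 and q = 0.374 in the authors' deposited table). With hexamers no sperm marker had enough data for the authors' test, and 4 of 14 were listed at 0 in each genotype; their sum was 5.93 FPKM in N2 and 5.78 in fog-2. Of 10 genes for the sperm side of fertilisation, 5 were tested with oligo-dT and 0 with hexamers, with 0 calls. Their median log2 fold with oligo-dT was -0.04, with 3 below 0 and 2 above, and 8 genes with a row summed to 4.25 FPKM in each genotype. With hexamers the same sum was 2.96 FPKM in N2 and 3.29 in fog-2. Of these sums, trp-3 alone made 1.996 and 2.66 FPKM with oligo-dT and 1.52 and 2.16 with hexamers. Lower in fog-2 were 5 of the 8 genes with each priming, and 3 were higher. The most abundant tested after trp-3 was spe-36, at 0.478 and 0.489 FPKM with oligo-dT. The lists share genes, among them trp-3 and spe-11. Markers of male soma were at most 1.24 FPKM in either table, with 0 calls among 3 tested with oligo-dT and none tested with hexamers. The most abundant tested were cwp-4 (1.24 and 0.749 FPKM) and pkd-2 (0.301 and 0.271 FPKM).

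**Figure D5:**
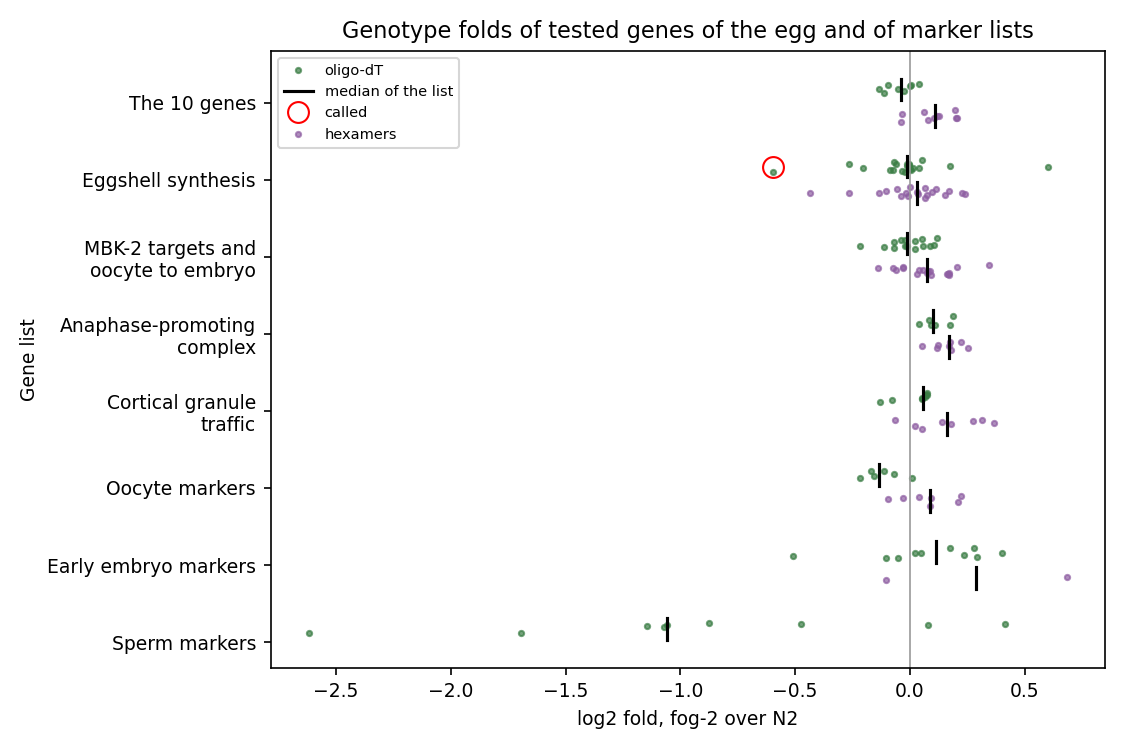
Log2 fold of fog-2 over N2 for each tested gene of the 10, of lists of egg genes and of cell markers, with oligo-dT and hexamers in separate rows; black bars are medians and the ring is the only called gene of these lists, pod-2 with oligo-dT. Of 9 sperm markers tested with oligo-dT, 7 lie left of 0 and 2 right of it, with a median of -1.06, and the egg gene lists have medians between -0.04 and 0.17.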

How the data were processed

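Per the labels' protocols, total RNA (called mRNA in the series' design) came from a Trizol extraction and libraries from a TotalScript kit. Tools named in the submitters' processing notes are Cuffdiff, Cufflinks 2.1.1 and TopHat; genome build and gene annotation were not given in the sources used here. Per the file headers, each priming has a table in which the authors deposited pooled FPKM for both genotypes with a p-value, a q-value and a test score. Groups followed the titles; 2 labels name another strain and 1 hexamer library is described as oligo-dT primed. Rows with a gene name and status OK count as tested; 1 nameless row was left out of each table. The size of each log2 fold, over the normal deviate matching the authors' p, gave its SE. Reported alternatives changed pseudocount, FPKM minimum, centring, shared loci and the source of SE. Scripts ran in Python 3.11.15 with pandas 2.3.3 and scipy 1.17.1, and both normal tests were tested on simulated data. The 10 genes and all lists were chosen with earlier results of these data known. Named beside the members were called genes and the 2 most abundant tested genes of a list, and the nearest gene to each member; other genes were chosen after their values were seen. Of listed names, 6 were matched through sequence names in the RefSeq gene table. Another 2, trp-3 and syn-4, were matched through another symbol of the same gene, entered by hand, and 4 had no row. WBcel235 coordinates differed from those of the tables for all 7 members with their own locus, so it was used for names, strands, exons and lengths alone.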

Additional observations from a re-analysis of the deposited data

How the results depend on the processing

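The counts of members called (0 with each priming) and of members whose fold differed between primings (0) stayed at 0 under every alternative run: an FPKM minimum of 1, folds centred on the median, genes with a locus of their own, an unadjusted p, errors from the test score and a difference without centring. Over all genes the priming test called 0 of 8593 without centring, 0 of 8492 with the FPKM minimum and 0 of 6395 with own loci. Those alternatives were empty for all genes and so are no check on the members. The test called 29 of 8593 with errors from the test score and 58 with errors multiplied by 0.645. The latter was added after the data were seen, and in it the smallest member adjusted p was 0.794. The median log2 fold of the members stayed between -0.04 and -0.01 with oligo-dT and between 0.0079 and 0.11 with hexamers. Of 18 single folds, centring turned the sign of 4, namely egg-2 to 0.029 and egg-4 to 0.0020 with oligo-dT, and egg-2 to -0.025 and egg-5 to -0.041 with hexamers. No paired analysis was possible because the tables hold 1 pooled value per genotype, and leaving out a library was not run for the same reason. The depth behind each FPKM is unknown.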

Other observations

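Among 65 genes of the lists that were tested in both tables, lin-41 and cul-3 had the lowest ratios of oligo-dT to hexamer level, in tables that were normalised separately; they were singled out after their values were seen. LIN-41 is an RNA-binding protein that restrains oocyte maturation, and CUL-3 is the cullin of the ligase that destroys MEI-1 after phosphorylation by MBK-2. In N2, lin-41 was at 13.7 FPKM with oligo-dT and 239.7 FPKM with hexamers, a log2 ratio of -4.13, and at -4.44 in fog-2. For cul-3 the levels in N2 were 5.88 and 71.4 FPKM, a log2 ratio of -3.60, and -3.86 in fog-2. They stood at percentiles 1.19 and 1.82 of all genes in N2, and neither was called between genotypes with either priming. In the authors' deposited table for hexamers, cul-3 was at 71.4 and 90.6 FPKM with p = 0.0372 and q = 0.521.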
